A study of Homo sapiens with 12 samples.

Results

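The genes described here are target genes of p53, measured in HT144, a human melanoma cell line, after silencing of CITED1. CITED1 is a transcriptional cofactor that binds the coactivators CBP and p300 and does not bind DNA itself. The 32 genes were chosen by name as known p53 targets, and 30 of them had a probe in the gene annotation used, with 47 probes in all, among 20045 genes on the array. BTG2, a gene that slows growth, and FDXR, a mitochondrial reductase, had no probe in that annotation and were not analysed here. Cells were transfected with #1 siCITED1, with #3 siCITED1 or with siNEG, a non-targeting control siRNA, and RNA was taken after 48 h. The groups had 4 wells each, plated on 1 day and from 1 passage, and each well was hybridised to 1 Illumina HT-12 array. All p-values below therefore reflect well-to-well variation within 1 day.

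p53 is a transcription factor that cells keep low until stress such as DNA damage stabilises it. It binds DNA as a tetramer, at a pair of decamers in or near its target genes, and raises genes that halt the cell cycle, repair DNA, adjust metabolism or kill the cell. Some targets, with MDM2 as the best known, act back on p53 and switch it off. In bulk RNA, a change in every cell and a change in the share of cells that express a gene cannot be told apart.

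The deposited values are log2 values centred on each gene and each array, so a value of 0 is the gene's own mean over the 12 arrays. They hold differences between arrays and no level, so genes cannot be ranked by expression and the presence of melanocyte markers in HT144 cannot be read from them. Over all probes the SD of an array lay between 0.11 and 0.134, the widest being that of siNEG replicate 1. CITED1 itself was checked first. It lay at -0.14, -0.19, -0.13 and -0.25 in the #1 arrays, at -0.20, -0.33, -0.28 and -0.34 in the #3 arrays, and at 0.44, 0.34, 0.54 and 0.53 in the siNEG arrays. All 8 silenced arrays lay below all siNEG arrays. The log2 difference from siNEG was -0.64 ± 0.055 with #1 (SE, 1.56-fold lower, adjusted p = 7.3e-07) and -0.75 ± 0.055 with #3 (1.68-fold lower, adjusted p = 7e-07), and #1 and #3 differed by 0.11 ± 0.055 (adjusted p = 0.28). MITF, the melanocyte lineage transcription factor, rose with #1 by 0.21 ± 0.045 (adjusted p = 0.0045) and with #3 by 0.24 ± 0.045 (adjusted p = 0.0042). Only 1 of its 3 probes passed: ILMN_2304186 rose by 0.49 ± 0.075 with #1 and 0.50 ± 0.075 with #3. ILMN_1761324 differed by 0.13 and 0.18 (adjusted p = 0.31 and 0.17 over all probes), with all 8 silenced arrays above all siNEG arrays. ILMN_1657854 differed by 0.014 and 0.033.

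Sequences that match the p53 site were looked for in the promoters of the genes. RefSeq promoter windows of GRCh38.p14, from 250 bases before to 50 bases after a start, were found for 26 of the 32 genes, in 37 windows. The p53 decamer consensus equals its own reverse complement, so a search of one strand covers both. An exact decamer stood in 7 of the 37 windows (18.9%), against 6.63% of all 35116 promoters. A pair of exact decamers with at most 13 bases between them stood in 1 of the windows, that of DDB2, against 10 of all promoters (0.0285%). A looser search, added after the exact one, asked for at least 18 matching bases of the 20 in a pair. The C and the G that the consensus fixes had to be present in both decamers. Such a pair stood in 6 windows (16.2%) of 5 genes, against 2.93% of all promoters. The best pairs of 4 of these genes, and those of PMAIP1 and TRIAP1, which differed most from siNEG with #1 (PMAIP1) and with #3 (TRIAP1), are shown 5′ to 3′ on the strand of the gene. Capitals mark bases that match the consensus, and up to 4 flanking bases are added at each end.
DDB2: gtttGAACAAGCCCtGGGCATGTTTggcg
FAS: tcctGGACAAGCCCtGACAAGCCaagcc
AEN: agccGGGCTTGCCCGGGCATGTgggagc
MDM2: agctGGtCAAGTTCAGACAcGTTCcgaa
PMAIP1: tcggGAGCgTGTCCGGGCAgGTCgcgct
TRIAP1: ggggAGGCATGCaCGGACATGaagcg
The DDB2 site is at chr11:47214979-47214999 on the plus strand, starting 5 bases past the start, and all 20 of its bases match, with 1 base between the decamers. The sites of FAS (chr10:88991309-88991328), AEN (chr15:88621306-88621325) and MDM2 (chr12:68808923-68808942) match at 18 bases, all on the plus strand and ahead of the start. The best pair of PMAIP1 (chr18:59899811-59899830, plus strand, ahead of the start) matches at 17, and that of TRIAP1 (chr12:120446337-120446356, minus strand, past the start) at 16. The share of all promoters with a best pair of 16 or 17 bases was not counted. Best pairs of 17 bases also stood in windows of GDF15, PLK2, RPS27L, SESN1 and ZMAT3, and of 16 in those of PERP and XPC, among others. A match is a description of these letters and not a measured binding site.

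With #1, 4 of the 30 genes passed the threshold (adjusted p under 0.05 by limma over all genes): ZMAT3 was higher, and PMAIP1, APAF1 and DDB2 were lower. With #3, 3 passed: ZMAT3 and PHLDA3 were higher and TRIAP1 was lower. The share of 13.3% with #1 stands beside 9.84% of all genes tested (4.82% higher, 5.02% lower), and the 3 of 30 with #3 beside 4.35% (2.44% higher, 1.91% lower). With all 8 silenced arrays pooled against the 4 siNEG arrays, a fit in which disagreement of #1 with #3 widens the error, only ZMAT3 passed, beside 1.92% of all genes (1.05% higher, 0.868% lower). Between the siRNAs, in #1 minus #3, 5 of the 30 passed (16.7%), with TRIAP1 higher and PHLDA3, PMAIP1, PPM1D and DDB2 lower, beside 12.4% of all genes (6.09% higher, 6.28% lower). In all, 7 of the 30 passed in at least 1 of the 4 comparisons and 23 in none, beside 16.8% of all genes that passed in at least 1. In each comparison the share of the 30 genes was above that of all genes, a difference that was not tested. The counts are small, and the 4 comparisons share arrays, so they do not repeat the result independently. All genes were taken without a filter.

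The median log2 difference of the 30 genes was -0.024 with #1, 0.034 with #3, 0.013 in the pooled comparison and -0.039 between the siRNAs, where the medians of all genes were 0.003, 0.001, 0.003 and 0.0. Array by array, the median of the 30 values ran from -0.047 to -0.003 in the #1 arrays, from -0.004 to 0.05 in the #3 arrays and from -0.037 to 0.014 in the siNEG arrays. The median absolute difference was 0.076 with #1 and 0.086 with #3, against 0.058 and 0.052 over all genes. The 95% interval of the difference lay within 0.5 of 0 for 29 of the 30 genes with #1 and for 29 with #3, and within 0.3 of 0 for 22 and 19. Of all 20045 genes it lay within 0.5 for 19218 with #1 and 19651 with #3, and within 0.3 for 16591 and 17571. The shares within 0.5 were thus close, and the share within 0.3 was lower among the 30 genes with either siRNA. The heat map by role shows the weak colours of most genes, with TRIAP1, PHLDA3 and PMAIP1 standing out.

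**Figure D1:**
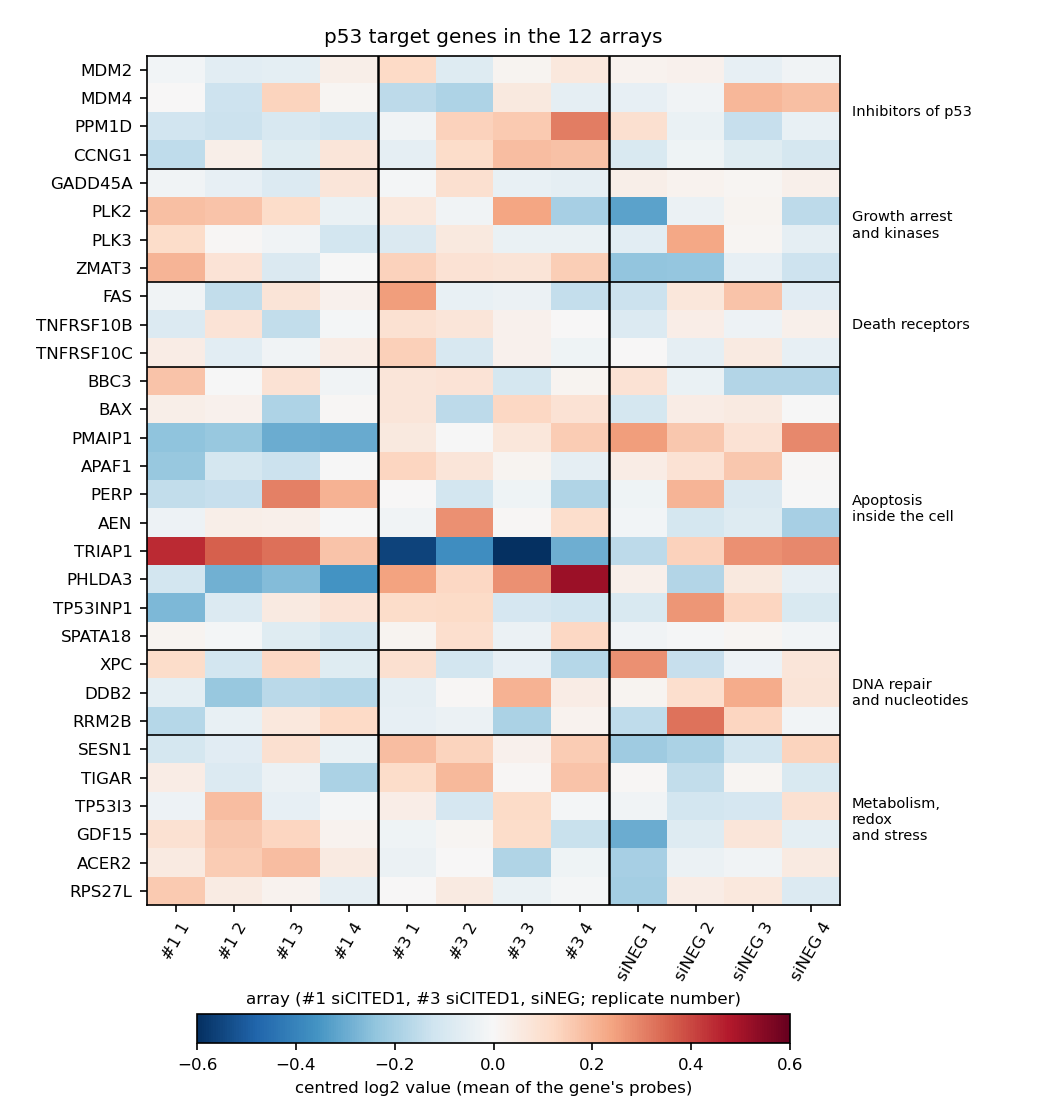
Centred log2 value of each of the 30 measured genes (rows, grouped by role) in the 12 arrays (columns: #1 siCITED1, #3 siCITED1 and siNEG, replicates 1 to 4). TRIAP1 is red in the #1 arrays (0.17 to 0.45) and blue in the #3 arrays (-0.63 to -0.29), and PMAIP1 is blue in the #1 arrays (-0.30 to -0.23).

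None of the 4 genes that act back on p53 passed against siNEG with either siRNA. With #3, 3 of them had an unadjusted p under 0.05 by limma, beside 2939 of all 20045 genes. MDM2, the ubiquitin ligase that marks p53 for destruction and is itself a p53 target, lay at -0.017, -0.062, -0.059 and 0.035 in the #1 arrays, at 0.12, -0.076, 0.016 and 0.063 in the #3 arrays, and at 0.023, 0.028, -0.049 and -0.020 in the siNEG arrays. The 3 groups overlapped. Its difference from siNEG had a 95% interval from -0.13 to 0.085 with #1 and from -0.071 to 0.14 with #3. MDM4, a relative of MDM2 that covers the activation domain of p53, differed by -0.072 with #1 and by -0.16 with #3 (adjusted p = 0.31). CCNG1, cyclin G1, which brings a phosphatase to MDM2, differed by 0.043 with #1 and by 0.18 with #3 (adjusted p = 0.14). Without #3 replicate 1, its lowest #3 array, the adjusted p with #3 was 0.045.

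PPM1D, the phosphatase WIP1 that removes activating phosphates from p53 and from the kinase ATM, passed in the comparison between the siRNAs. It lay at -0.12, -0.13, -0.097 and -0.11 in the #1 arrays, at -0.022, 0.14, 0.16 and 0.31 in the #3 arrays, and at 0.098, -0.041, -0.14 and -0.046 in the siNEG arrays. The #1 arrays all lay below the #3 arrays, and both overlapped with siNEG. PPM1D was lower with #1 than with #3 by a log2 difference of -0.26 ± 0.064 (1.19-fold, adjusted p = 0.013), while neither siRNA passed against siNEG (-0.081 with #1, adjusted p = 0.57, and 0.18 with #3, adjusted p = 0.17).

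Among the growth arrest genes and kinases, ZMAT3 passed with both siRNAs. ZMAT3 is an RNA-binding zinc finger protein that p53 induces. Its mean over 3 probes was 0.20, 0.084, -0.086 and -0.004 in the #1 arrays, 0.14, 0.085, 0.078 and 0.15 in the #3 arrays, and -0.24, -0.23, -0.049 and -0.12 in the siNEG arrays. All #3 arrays lay above all siNEG arrays, while replicate 3 of #1 lay within the siNEG range. The difference was 0.21 ± 0.062 with #1 (1.16-fold higher, adjusted p = 0.041), 0.27 ± 0.062 with #3 (1.21-fold, adjusted p = 0.017) and 0.24 ± 0.055 in the pooled comparison (adjusted p = 0.037). The siRNAs differed by -0.061 ± 0.062 (adjusted p = 0.67).

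The probes of ZMAT3 did not move together, however. ILMN_1865764 lay at 0.44, 0.31, 0.25 and 0.37 in the #1 arrays, at 0.074, -0.003, -0.013 and 0.077 in the #3 arrays, and at -0.62, -0.31, -0.20 and -0.37 in the siNEG arrays, with no overlap between any of the groups. It rose by 0.71 ± 0.075 with #1 (adjusted p = 3.6e-07 over all probes) and by 0.41 ± 0.075 with #3 (adjusted p = 0.0017), and was higher with #1 than with #3 by 0.31 ± 0.075 (adjusted p = 0.0087). ILMN_2361104 fell with #1, by a log2 difference of -0.31 ± 0.076 (adjusted p = 0.012), differed by 0.083 with #3 (adjusted p = 0.81), and was lower with #1 than with #3 (-0.39 ± 0.076, adjusted p = 0.0011). The third probe, ILMN_1654262, differed by 0.23 ± 0.10 with #1 and 0.33 ± 0.10 with #3 and did not pass. The direction of ZMAT3 with #1 thus differed between probes. The call of the gene mean with #1 was lost without siNEG replicate 1, 2 or 4, #1 replicate 1, 2 or 4, or #3 replicate 1, 2 or 3 (adjusted p from 0.051 to 0.14). That with #3 was lost without siNEG replicate 2 or #3 replicate 1 or 4 (0.051 to 0.062), and the pooled call without siNEG replicate 1, 2 or 4, #1 replicate 1 or 2, or any of the #3 arrays (0.054 to 0.15).

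The other genes of this role did not pass. GADD45A, a stress protein that binds PCNA and halts the cycle, differed by -0.046 with #1 and -0.028 with #3. Of the polo-like kinases, PLK2 differed by 0.23 ± 0.087 with #1 (adjusted p = 0.13) and 0.14 ± 0.087 with #3, and PLK3 by -0.035 and -0.060. CDKN1A, the cycle inhibitor p21 and the classical p53 target, was not one of the 32 genes. As the mean of its probes it differed by 0.029 ± 0.051 with #1 (adjusted p = 0.85) and by 0.15 ± 0.051 with #3 (adjusted p = 0.12). Of its 2 probes, ILMN_1784602 rose with #3 by 0.33 ± 0.070 (adjusted p = 0.0073) and the other, ILMN_1787212, differed by -0.023 with #3.

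**Figure D2:**
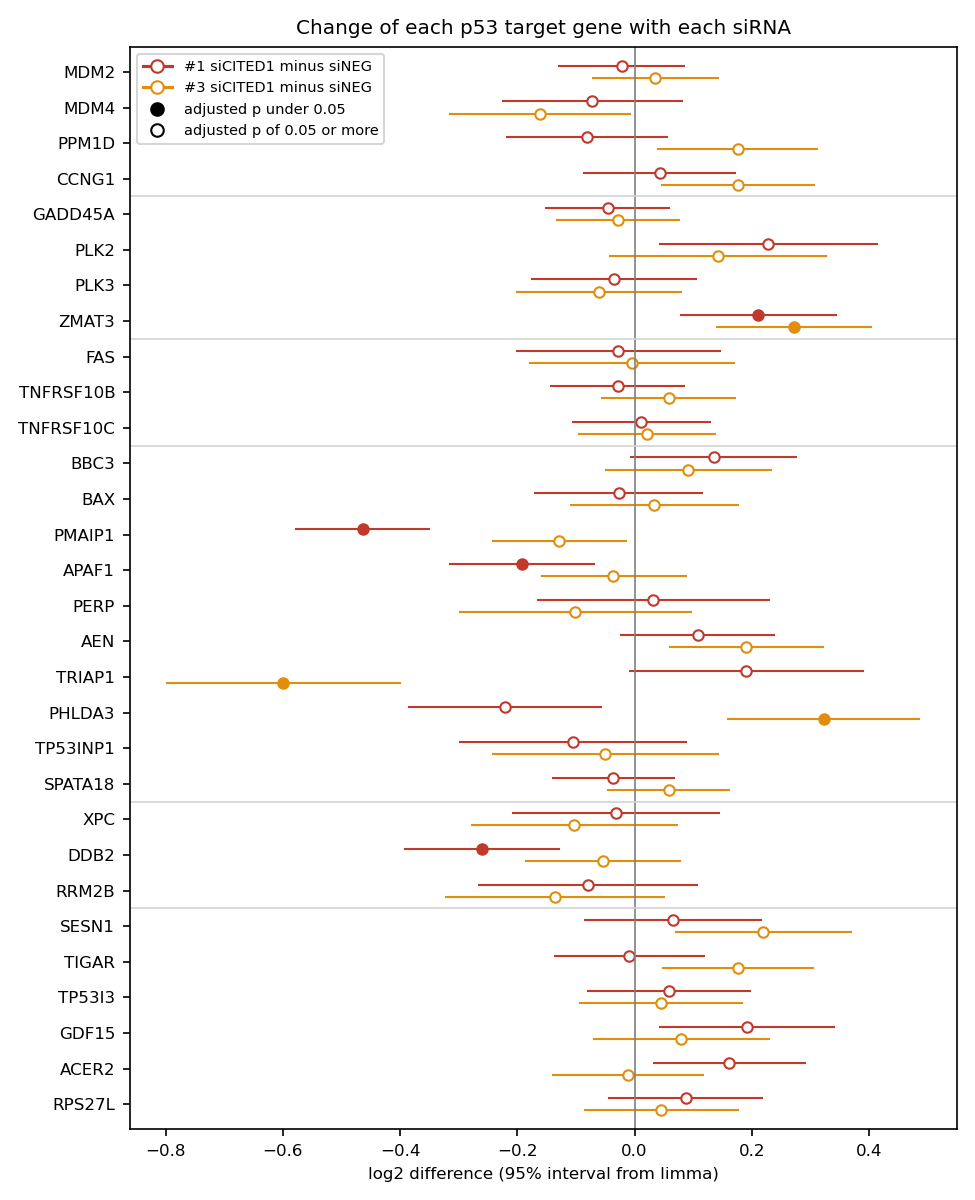
Log2 difference from siNEG of each of the 30 genes with #1 siCITED1 (red) and #3 siCITED1 (orange), 4 arrays per group, with 95% intervals from limma. Grey lines part the roles in the order of the heat map, and filled points have an adjusted p under 0.05. Most intervals span 0, and several genes have their siRNAs on opposite sides of 0, with TRIAP1 and PHLDA3 the widest apart.

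The 3 genes grouped under death receptors, of which TNFRSF10C is a decoy, did not pass in any comparison by limma, and 0 of them had an unadjusted p under 0.05. Of all 20045 genes, 2409 (pooled) to 4507 (between the siRNAs) had one. FAS, the receptor for FAS ligand, differed by -0.028 with #1 and -0.004 with #3. TNFRSF10C, a decoy receptor for the ligand TRAIL, differed by 0.011 with #1 and 0.022 with #3. TNFRSF10B, the death receptor DR5 that TRAIL activates, had the largest difference of the 3, between the siRNAs. It lay at -0.080, 0.081, -0.15 and -0.010 in the #1 arrays, at 0.090, 0.074, 0.025 and 0.004 in the #3 arrays, and at -0.080, 0.040, -0.029 and 0.030 in the siNEG arrays. All groups overlapped, and #1 minus #3 was -0.087 ± 0.054 (95% interval -0.20 to 0.027, adjusted p = 0.40).

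Of the 10 genes that act in apoptosis inside the cell, 2 passed with #1 and 2 with #3, beside 9.84% and 4.35% of all genes. Between the siRNAs 3 passed, and in the pooled comparison 0, beside 12.4% and 1.92% of all genes. That makes 4 genes in all, beside the 16.8% of all genes in at least 1 comparison. In the pooled comparison 2 of the 10 had an unadjusted p under 0.05 by limma, beside 2409 of all 20045 genes. PMAIP1 encodes NOXA, a BH3-only protein that neutralises the survival protein MCL1. It lay at -0.24, -0.23, -0.30 and -0.30 in the #1 arrays, at 0.058, -0.002, 0.070 and 0.15 in the #3 arrays, and at 0.25, 0.16, 0.085 and 0.29 in the siNEG arrays. The #1 arrays stood apart below all others, and the #3 arrays overlapped with siNEG. PMAIP1 was lower with #1 by -0.46 ± 0.053 (1.38-fold, adjusted p = 1.6e-05), differed by -0.13 ± 0.053 with #3 (adjusted p = 0.25), and was lower with #1 than with #3 by -0.34 ± 0.053 (adjusted p = 0.00035). Both of its probes were lower with #1, ILMN_2098446 by -0.69 ± 0.063 and ILMN_1689525 by -0.23 ± 0.069 (adjusted p = 3.8e-08 and 0.042 over all probes), and ILMN_2098446 was also lower with #3, by -0.24 ± 0.063 (adjusted p = 0.040).

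TRIAP1, a small mitochondrial protein that carries lipid between the membranes and restrains apoptosis, showed the largest differences of the 30 genes. It lay at 0.45, 0.36, 0.33 and 0.17 in the #1 arrays, at -0.56, -0.38, -0.63 and -0.29 in the #3 arrays, and at -0.15, 0.14, 0.27 and 0.29 in the siNEG arrays. The #3 arrays lay below all others, and the #1 arrays overlapped with siNEG. TRIAP1 was lower with #3 by -0.60 ± 0.094 (1.51-fold, adjusted p = 0.00095), differed by 0.19 ± 0.094 with #1 (adjusted p = 0.27), and was 1.73-fold higher with #1 than with #3 (0.79 ± 0.094, adjusted p = 2.1e-05).

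PHLDA3, a pleckstrin homology domain protein that keeps the survival kinase AKT from the membrane, also parted the siRNAs. It lay at -0.11, -0.29, -0.26 and -0.36 in the #1 arrays, at 0.24, 0.13, 0.27 and 0.51 in the #3 arrays, and at 0.032, -0.18, 0.059 and -0.051 in the siNEG arrays. The #3 arrays lay above all others. PHLDA3 was higher with #3 by 0.32 ± 0.078 (1.25-fold, adjusted p = 0.024), differed by -0.22 ± 0.078 with #1 (adjusted p = 0.093, and 0.047 without siNEG replicate 2 or 0.042 without #3 replicate 4), and was lower with #1 than with #3 by -0.54 ± 0.078 (adjusted p = 0.00013). The call with #3 was lost without siNEG replicate 2 (adjusted p = 0.086), siNEG replicate 4 (0.061), #3 replicate 3 (0.053) or #3 replicate 4 (0.072). TRIAP1 and PHLDA3 were each read by 1 probe.

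APAF1, the scaffold on which caspase-9 is activated, lay at -0.23, -0.10, -0.13 and -0.002 in the #1 arrays, at 0.13, 0.071, 0.015 and -0.055 in the #3 arrays, and at 0.046, 0.089, 0.16 and 0.006 in the siNEG arrays. The #1 arrays lay below all siNEG arrays and overlapped with #3. The difference with #1 was -0.19 ± 0.058 (1.14-fold lower, adjusted p = 0.045), with #3 -0.036 ± 0.058 (adjusted p = 0.87), and the siRNAs differed by -0.16 ± 0.058 (adjusted p = 0.099). It came from 1 probe of 2: ILMN_1659463 was lower with #1 by -0.39 ± 0.077 (adjusted p = 0.0014), where ILMN_2344798 differed by 0.011 ± 0.065 (adjusted p = 0.98). The call of the gene mean was lost without siNEG replicate 1, 2 or 3, #1 replicate 1, 2 or 3, or #3 replicate 2 or 3 (adjusted p from 0.055 to 0.14).

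**Figure D3:**
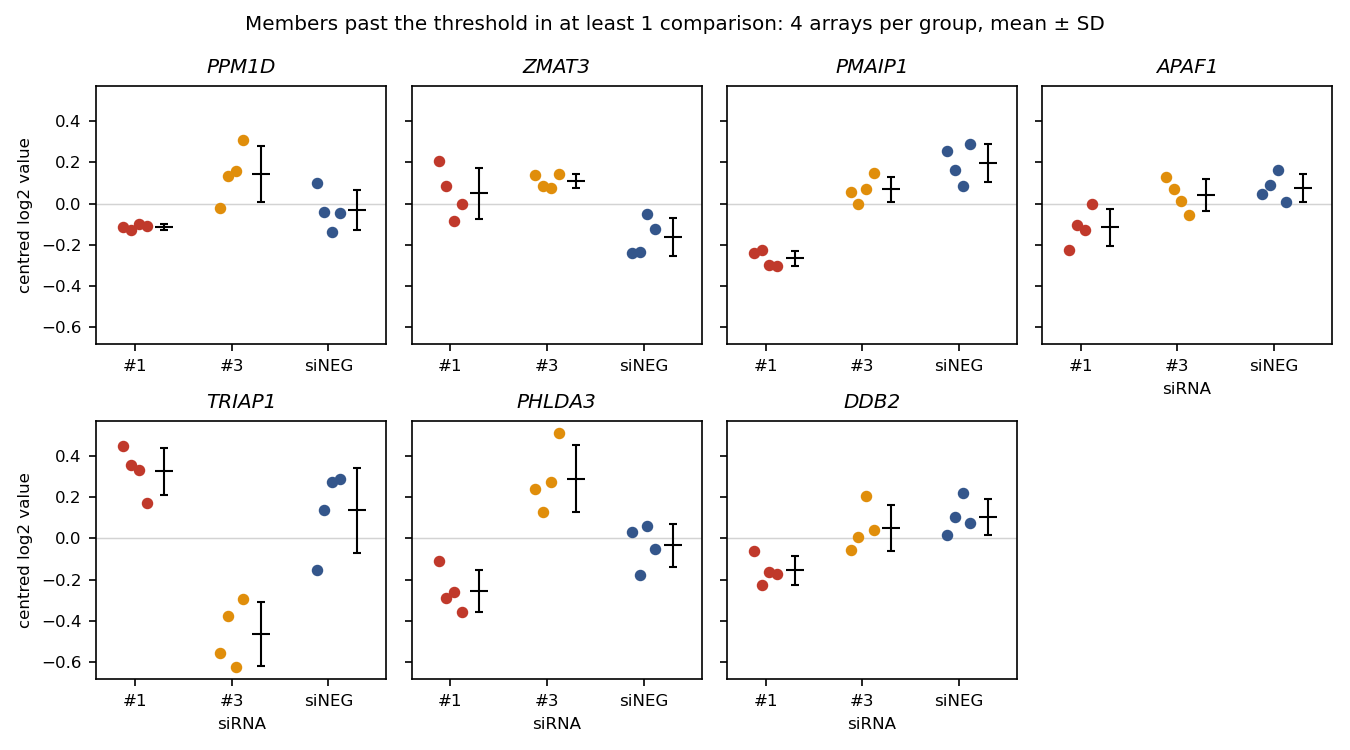
Centred log2 values of the 7 genes past the threshold in at least 1 comparison, with 4 arrays per group (points) and the mean ± SD (black) for #1 siCITED1, #3 siCITED1 and siNEG. PMAIP1 separates the #1 arrays from the rest, TRIAP1 separates the #3 arrays, and PHLDA3 lies high with #3 and low with #1.

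The other 6 apoptosis genes did not pass as the mean of their probes. BBC3, which encodes the BH3-only protein PUMA, differed by 0.14 with #1 (adjusted p = 0.27) and 0.092 with #3, and AEN, an apoptosis-enhancing nuclease, by 0.11 and by 0.19 (adjusted p = 0.11). BAX, which opens the outer mitochondrial membrane, differed by -0.027 with #1 and 0.034 with #3. One of its 3 probes, ILMN_1683300, was lower with #1 than with #3 by -0.30 ± 0.069 (adjusted p = 0.0056), and ILMN_2321064 lay the other way at 0.23 ± 0.12 (adjusted p = 0.35). PERP, a membrane protein of cell junctions, TP53INP1, a nuclear stress protein, and SPATA18, which acts in mitochondrial quality control, differed by between -0.10 and 0.058 with either siRNA.

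Of the genes of DNA repair and nucleotide supply, DDB2 passed. DDB2 recognises ultraviolet damage in chromatin and hands it to XPC, and its promoter window held the exact p53 site shown above. It lay at -0.059, -0.23, -0.16 and -0.17 in the #1 arrays, at -0.055, 0.009, 0.21 and 0.043 in the #3 arrays, and at 0.016, 0.10, 0.22 and 0.077 in the siNEG arrays. The #1 arrays lay below all others, the highest of them just under the lowest #3 array. DDB2 was lower with #1 by -0.26 ± 0.062 (1.2-fold, adjusted p = 0.012), a call that held with each array left out, and differed by -0.053 ± 0.062 with #3 (adjusted p = 0.80). The siRNAs differed by -0.21 ± 0.062 (adjusted p = 0.038), a call that was lost without #1 replicate 2, 3 or 4 (adjusted p = 0.11, 0.083 and 0.087) or #3 replicate 2, 3 or 4 (0.052, 0.13 and 0.072). That call was lost under 8 alternatives in all, among them the limma fit of single probes (adjusted p = 0.07 over all probes). XPC differed by -0.032 with #1 and -0.10 with #3, and RRM2B, a ribonucleotide reductase subunit that supplies nucleotides for repair, by -0.080 and -0.14. Neither passed.

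No gene of metabolism, redox and stress response passed by limma. An unadjusted p under 0.05 was found for 2 of the 6 with #1 and 2 with #3. Among all 20045 genes it was found for 4125 and 2939. SESN1, a sestrin that restrains mTORC1, had the largest difference of the 6, with #3. It lay at -0.10, -0.069, 0.097 and -0.042 in the #1 arrays, at 0.19, 0.13, 0.027 and 0.15 in the #3 arrays, and at -0.21, -0.19, -0.11 and 0.13 in the siNEG arrays. Replicate 4 of siNEG lay among the #3 arrays. The difference with #3 was 0.22 ± 0.071 (adjusted p = 0.10) and with #1 0.065 ± 0.071 (adjusted p = 0.72), and without siNEG replicate 4 that with #3 was 0.30 (adjusted p = 0.011). TIGAR, a phosphatase that slows glycolysis, differed by -0.009 with #1 and 0.18 with #3 (adjusted p = 0.13). Between the siRNAs it differed by -0.19 ± 0.060 (adjusted p = 0.055). That adjusted p was 0.031 without #1 replicate 1, its highest #1 array, or without #3 replicate 3, its lowest #3 array. GDF15, a secreted stress hormone, differed by 0.19 with #1 (adjusted p = 0.11) and 0.080 with #3. Without siNEG replicate 3, its highest siNEG array, the adjusted p with #1 was 0.038. TP53I3, a quinone oxidoreductase, and RPS27L, a relative of a ribosomal protein, differed by between 0.045 and 0.087. ACER2, an alkaline ceramidase, differed by 0.16 with #1 (adjusted p = 0.12) and -0.011 with #3. One of its probes, ILMN_3235340, rose with #1 by 0.33 ± 0.094 (adjusted p = 0.033), and the other, ILMN_1761000, differed by -0.006.

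Read probe by probe, 11 of the 47 probes passed in at least 1 comparison. These were 7 with #1, 4 with #3, 2 in the pooled comparison and 9 between the siRNAs, beside 6.04%, 2.54%, 1.11% and 7.46% of all 47315 probes. Of the 14 genes with several probes, 5 had only some probes past the threshold in a comparison, namely ZMAT3, PMAIP1, APAF1, BAX and ACER2. ZMAT3 was the 1 gene with probes past the threshold in opposite directions.

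**Figure D4:**
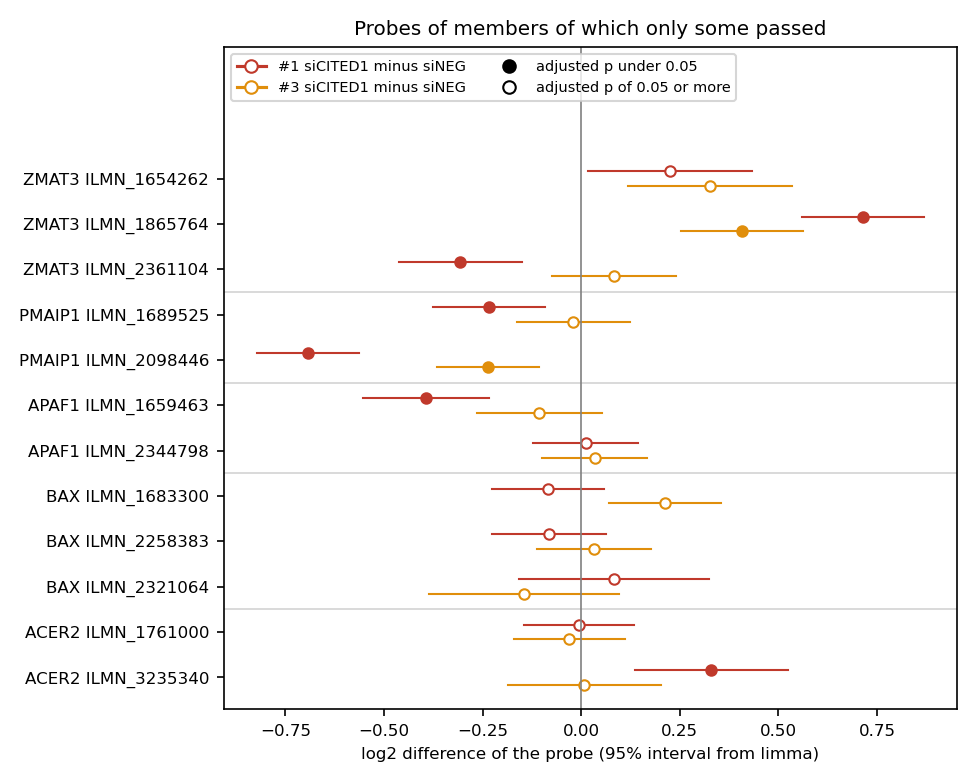
Log2 difference from siNEG of each probe of the 5 genes of which only some probes passed, with #1 siCITED1 (red) and #3 siCITED1 (orange) and 95% intervals from limma over all probes; filled points have an adjusted p under 0.05. The ZMAT3 probes run from -0.31 to 0.71 with #1, and the BAX probe that passed did so between the siRNAs, a comparison that is not drawn.

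Other genes of the pathway were read from lists. Of 35 regulators of p53, 32 were measured. With #1 none was higher and 4 were lower (12.5% of the list, beside 9.84% of all genes, or 5.02% lower): CHEK1, a damage checkpoint kinase (-0.45 ± 0.067), HIPK2, a kinase that phosphorylates p53 (-0.34 ± 0.052), RFWD3, a ubiquitin ligase (-0.33 ± 0.064), and PRMT5, an arginine methyltransferase (-0.21 ± 0.049). With #3 and in the pooled comparison none passed, beside 4.35% and 1.92% of all genes. An unadjusted p under 0.05 by limma was found for 2 and 4 of the list, beside 2939 and 2409 of all 20045 genes. Between the siRNAs TOPORS, a ubiquitin and SUMO ligase, was higher (0.22 ± 0.058) and CHEK1 and HIPK2 were lower with #1, which is 9.38% of the list beside 12.4% of all genes. The median of the list was -0.003 with #1 and 0.008 with #3.

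Of 66 further p53 targets, 7 were higher and 6 lower with #1 (19.7%, beside 9.84% of all genes) and 2 were higher and 1 lower with #3 (4.55%, beside 4.35%). None passed in the pooled comparison, where 1.92% of all genes passed. An unadjusted p under 0.05 by limma was found there for 13 of the 66, beside 2409 of all 20045 genes. Between the siRNAs 6 were higher and 10 lower with #1 (24.2%, beside 12.4%). The medians were 0.002 with #1 and 0.03 with #3. TGFA, a growth factor, was lower with #1 (-0.59 ± 0.063) and differed by -0.18 ± 0.063 with #3 (adjusted p = 0.15). FUCA1, a lysosomal fucosidase, was higher with #1 (0.39 ± 0.060) and differed by 0.094 ± 0.060 with #3 (adjusted p = 0.55). CMBL, a hydrolase, was lower with #1 (-0.34 ± 0.098), differed the other way with #3 (0.24 ± 0.098, adjusted p = 0.24), and was lower with #1 than with #3 (-0.58 ± 0.098, adjusted p = 0.00056). The next genes had their siRNAs on opposite sides of siNEG as well. BTG1, an antiproliferative gene, differed by 0.23 ± 0.089 with #1 (adjusted p = 0.12), was lower with #3 (-0.33 ± 0.089), and was higher with #1 than with #3 (0.56 ± 0.089, adjusted p = 0.00032). IGFBP3, a binding protein of insulin-like growth factors, differed by -0.10 ± 0.066 with #1 (adjusted p = 0.43), was higher with #3 (0.29 ± 0.066), and was lower with #1 than with #3 (-0.39 ± 0.066, adjusted p = 0.00053). DRAM1, a lysosomal protein of autophagy, differed by 0.18 ± 0.071 with #1 and -0.20 ± 0.071 with #3 (adjusted p = 0.14 and 0.16) and was higher with #1 than with #3 (0.38 ± 0.071, adjusted p = 0.0014).

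Genes listed as ones that p53 can repress through p21 and the DREAM complex, a repressor of cell cycle genes, were mostly lower with #1. Of the 15 measured, 13 were lower with #1, 1 was lower with #3 and none was higher with either, and 13 were lower with #1 than with #3, beside 5.02%, 1.91% and 6.28% of all genes lower in these comparisons. The 1 gene with #3 is 6.67% of the list. The median difference was -0.53 with #1, -0.10 with #3, -0.31 in the pooled comparison and -0.44 between the siRNAs. Array by array, the median of the list lay between -0.41 and -0.29 in the #1 arrays, between 0.11 and 0.14 in the #3 arrays and between 0.14 and 0.25 in the siNEG arrays. With #1, CDC20, which starts anaphase, was lower by -0.84 ± 0.065, the mitotic kinase AURKA by -0.82 ± 0.051, the cyclins CCNB2 and CCNB1 by -0.70 ± 0.068 and -0.56 ± 0.066, the spindle checkpoint kinase BUB1 by -0.64 ± 0.085 and CDK1, their kinase partner, by -0.55 ± 0.066. CDC20 was also the gene that passed with #3 (-0.28 ± 0.065, adjusted p = 0.020), and BUB1 the one that passed in the pooled comparison (-0.47 ± 0.11, adjusted p = 0.035). CHEK1 belongs to this list and to that of the regulators. These cell cycle genes moved with the same arrays in which PMAIP1, APAF1 and DDB2 were low, and their part in those results was not tested.

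**Figure D5:**
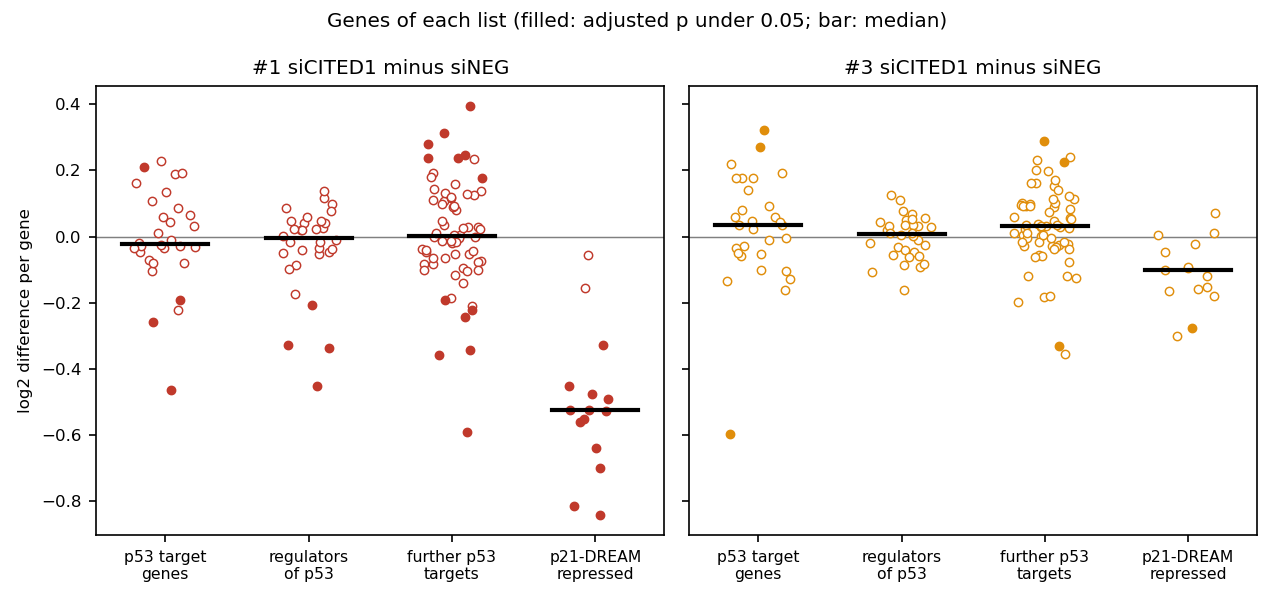
Log2 difference of each gene of 4 lists with #1 siCITED1 (left) and #3 siCITED1 (right), both against the same 4 siNEG arrays; filled points have an adjusted p under 0.05 and bars are medians. The 30 p53 target genes scatter around 0 with either siRNA, and the 15 genes listed as repressed through p21 and DREAM have a median of -0.53 with #1 and -0.10 with #3.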

How the data were processed

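RNA from 12 wells of HT144 cells (4 each with #1 siCITED1, #3 siCITED1 and siNEG) was read on Illumina HT-12 arrays. The authors quantile normalized the raw data, removed control probes in BASE, and deposited log2 values centred on each gene and sample in MeV. How background was corrected and which probes were detected is not given in the sources used here. That the logarithm is to base 2 comes from the methods, and folds rest on it. Of 47315 probes, 30105 had 1 gene symbol in the annotation used, 8 had several and 17202 had no entry, and probes were averaged per gene into 20045 genes. Arrays have no read depth, and precision is limited by their number. The values as deposited entered linear models (lmFit and eBayes of limma 3.58.1, R 4.3.3), with no filter, two-sided, with Benjamini-Hochberg adjustment over all genes or all probes and a threshold of 0.05. From a model of 3 groups came the contrast of each siRNA with siNEG, and that of #1 with #3. The comparisons with #1 and with #3 share the siNEG arrays. A model of 2 groups gave the pooled comparison of the methods, with limma in place of SAM. The fit was tested on simulated data. Errors of differences are SEs from limma.

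The members, roles, lists and alternatives were chosen with earlier results of these data known. Every member was named. Values per array were given for members past the threshold in any comparison and otherwise for the member of a role with the largest change in the 3-group model, and MDM2 was added to these. Of the other lists, no more than 6 genes were named, taking the largest changes among those past the threshold. Alternatives were single probes, the most variable probe of a gene, the replicate number as a block, robust eBayes, array weights, arrays scaled to 1 spread, the average of the 2 siRNA contrasts and each array left out. For a comparison that did not pass, a fit with an array left out was given only where the gene then passed.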

Additional observations from a re-analysis of the deposited data

Results flagged for a closer look

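In 2 of 93 groups of 4 arrays tested, 1 array stood apart from the other 3, where chance gives about 1 in 20. BAX lay at -0.185 in #1 replicate 3, with the other #1 arrays between 0.007 and 0.033. TP53I3 lay at 0.187 in #1 replicate 2, with the other #1 arrays between -0.047 and -0.011.

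For 5 genes the effects of the siRNAs differed in the limma test of #1 minus #3. The log2 difference was 0.789 for TRIAP1 (adjusted p = 2.1e-05), -0.543 for PHLDA3 (adjusted p = 0.00013), -0.335 for PMAIP1 (adjusted p = 0.00035), -0.257 for PPM1D (adjusted p = 0.013) and -0.206 for DDB2 (adjusted p = 0.038). CITED1 itself differed between the siRNAs by 0.107 (adjusted p = 0.28).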

How the results depend on the processing

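Of 244 values of called genes under the alternatives, 191 kept their call and direction, 50 lost the call and 3 changed direction, and 12 comparisons of a gene passed only under an alternative. The calls of TRIAP1 with #3 and between the siRNAs, of PMAIP1 and DDB2 with #1, and of PHLDA3 and PPM1D between the siRNAs were kept under every alternative run. TRIAP1, DDB2, PHLDA3 and PPM1D have 1 probe each, so for them the choice of probe could not change the values.

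The count of p53 targets in the pooled comparison (1) was 2 with the most variable probe, with the average of the siRNA contrasts and with single probes, and 0 to 1 with each array left out. With #1 (4) it was 2 to 5 with each array left out, with #3 (3) it was 1 to 3, and between the siRNAs (5) it was 8 with single probes. Of all genes, the pooled count (385) was 1155 with the average of the contrasts and 174 to 387 with each array left out. By probe, ZMAT3 turned to -0.112 in the pooled comparison and -0.307 with #1 (ILMN_2361104), and to 0.306 between the siRNAs (ILMN_1865764, also the most variable probe), and APAF1 with #1 turned to 0.011 (ILMN_2344798).

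With the replicate number as a block, the p53 targets counted 0 pooled and 2 with #1, and all genes 213 pooled. The numbers only name the wells: deviations at the same number correlated between -0.0742 and 0.132 over 12 pairs, and in 4 of 12 the array correlated best with its own number.

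With 4 wells per group from 1 day, no spread between days was measured. Centred values allow no filter on dim probes, no other background correction and no slide as a block, so these were not run. The causes of these changes were not tested.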
